A study of Homo sapiens with 10 samples.

Results

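The nuclear genes for the subunits of the mitochondrial respiratory chain and of ATP synthase were described in serum-starved hTERT RPE-1 cells given merbarone. Members were all protein-coding genes whose symbol begins with NDUFA, NDUFB, NDUFC, NDUFS or NDUFV and a number, the 4 genes SDHA to SDHD, and those whose symbol begins with UQCR, COX4, COX5, COX6, COX7, COX8, ATP5F, ATP5M or ATP5P. Pseudogenes were left out. This gave 87 of the 20327 genes in each table: 39 in complex I, 4 in complex II, 8 in complex III, 17 in complex IV and 19 in complex V. NDUFA4 and NDUFA4L2 were counted under complex I by their symbols, although NDUFA4 is known as a subunit of complex IV.

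The respiratory chain lies in the inner mitochondrial membrane. Complex I (NADH dehydrogenase) and complex II (succinate dehydrogenase) pass electrons to ubiquinone, complex III (the cytochrome bc1 complex) passes them to cytochrome c, and complex IV (cytochrome c oxidase) passes them to oxygen. Complexes I, III and IV pump protons, and complex V (ATP synthase) uses the proton gradient to make ATP. A few subunits are encoded by mitochondrial DNA and transcribed by the mitochondrial RNA polymerase. The genes described here are nuclear and transcribed by RNA polymerase II, and many are known to carry promoter sites for NRF1 and for ETS factors of the GABP type. Pigment epithelium of the retina is known for a high demand on oxidative metabolism.

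hTERT RPE-1 is a line of human retinal pigment epithelium immortalised with telomerase, and all libraries came from wild-type cells of it, kept for 48 h in medium with 0.1% FBS. Merbarone, a catalytic inhibitor of topoisomerase II, was given at 200 µM. One experiment held 3 libraries of cells given the vehicle DMSO for 30 min and 3 of cells given merbarone for 30 min. The other held 2 libraries of untreated cells, without vehicle, and 2 of cells given merbarone for 2 h. The series concerns pausing of RNA polymerase II near promoters and DNA supercoiling. The labels do not say whether the libraries of a group came from separate cultures, so p-values measure the spread between these libraries, which may be technical. In bulk RNA, fewer cells of a kind and less RNA per cell cannot be told apart.

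Libraries held 26633780 to 38225538 reads in the 30 min experiment and 11956652 to 13691014 in the 2 h experiment, as recovered from the deposited RPKM values (reads divided by the length of the gene and by the reads of the library). No pair of replicates held identical values. All 5 markers of the epithelial line were at 1 RPKM or more in every library. Of 8 pigment epithelium markers, BEST1, OTX2 and PMEL were at 1 RPKM or more in every library, while RPE65, RLBP1, TYR and TYRP1, which define mature pigment epithelium, stayed under 0.1 RPKM in each. The summed level of those 8 markers was 8.82 to 11.5 RPKM in the 30 min experiment and 25.1 to 29.0 in the 2 h experiment. Most of that gap was BEST1, at 2.10 to 2.82 RPKM in the former and 17.0 to 20.03 in the latter. At 2 h, OTX2 was called lower and 0 of the 5 epithelial line markers were called, none at an unadjusted p of 0.05 in limma; the part of this in the members' falls was not tested. Of 7 markers of other cell types in the tables, 6 stayed under 0.1 RPKM and GFAP reached 0.127.

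The members took 0.47 to 0.616% of the reads of a library. NDUFC2-KCTD14 and ATP5MF-PTCD1, 2 of the 87, are readthrough genes that overlap the members NDUFC2 and ATP5MF. Mean reads of NDUFC2 were 98.4% of those of its readthrough gene, and mean reads of ATP5MF 54.7%. The same reads can thus stand in both members of such a pair, in this share and in the counts below. Of the 87, 84 had at least 1 read in some library, and COX4I2, COX6A2 and COX7B2 had 0 in all 10. The filter of a mean of 1 RPKM let 66 members into the test of the 30 min experiment and 72 into that of the 2 h experiment, with 65 in both. The authors' RPKM divided reads by the whole gene span for most genes, introns included, so a low RPKM can belong to an abundant transcript of a long gene. NDUFS4, NDUFA10, NDUFA12, NDUFV2, SDHC and SDHD were among the members below the filter in both experiments, although each had between 1678 and 16503 reads over the 10 libraries. Levels of different genes are therefore compared below per length of the canonical transcript, as RPKM with that length in place of the authors', called the transcript-scaled level. Members overlapped another tabled gene in 38 cases, and 49 had at least 1 annotated pseudogene of their name. Whether reads were counted by strand, and how reads that match a pseudogene were placed, is not given in the sources used here, so values of such genes are uncertain.

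At 30 min none of the members changed past the test. Of 66 members tested, 0 were called by limma at an adjusted p of 0.05, against 1 of 6500 genes in all (0.0154%), which was FOS, an immediate-early transcription factor. No member reached an unadjusted p of 0.05 in limma, and limma's voom on the recovered reads called 0 as well. These fits and the SEs below took the libraries as unpaired. With the replicate number as a block, limma also called 0 members, beside 8 of 6500 genes. The median change was -0.01 on the log2(RPKM + 1) scale, the same as the -0.01 of all genes tested. Of the 66, 40 lay below 0, beside 57.7% of all genes. The 3 merbarone libraries all lay above the 3 DMSO libraries for 1 member, UQCRH, beside 0.877% of all genes.

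The extremes of the 30 min experiment were small in every complex. The most negative was COX5B, a matrix-side subunit of cytochrome c oxidase, at -0.11 (SE 0.09, limma adjusted p = 1). Its RPKM was 18.1, 20.4 and 17.4 in the DMSO libraries and 18.2, 15.5 and 17.8 after merbarone, so the groups overlapped. The most positive was COX7C, a small membrane subunit of the same complex, at 0.09 (SE 0.10). COX7C had an RPKM of 12.6, 13.5 and 10.6 with DMSO and 14.1, 11.9 and 13.2 with merbarone, again with overlap. UQCRH, the hinge protein of complex III, had the least spread of these, with an RPKM of 1.45, 1.49 and 1.48 against 1.53, 1.63 and 1.53. Its change was 0.05 (SE 0.04, limma adjusted p = 1). In complex I the values ran from -0.09 for NDUFB10 to 0.03 for NDUFA1, and in complex V from -0.10 for ATP5MK to 0.07 for ATP5F1C. SDHB, the iron-sulfur subunit and the one member of complex II tested at 30 min, stood at 0.02. The medians by complex were -0.02 for complex I, 0.00 for complex III, 0.00 for complex IV and 0.00 for complex V.

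At 2 h, 15 of 72 members fell and 0 rose by limma's adjusted p of 0.05, which is 20.8% of those tested. Here and below, a gene that fell is one called lower in that way. Among all 6620 genes tested, limma called 13.1%, with 7.1% lower and 5.98% higher. The median change of the members was -0.24, beside -0.05 over all genes. Of the 72, 69 lay below 0, beside 60.3% of all genes. For 60 members both merbarone libraries lay below both untreated libraries, beside 39% of all genes. For 1 member, NDUFV3, both lay above, beside 22.5%. The 15 were ATP5MC1, ATP5MC3, ATP5ME, ATP5MJ, ATP5PB and ATP5PD of complex V, NDUFS5, NDUFA1, NDUFB10, NDUFA4, NDUFA2 and NDUFB3 of complex I, COX7B and COX6B1 of complex IV, and UQCR10 of complex III. The count rested on single libraries: limma called 0 without merbarone 2 h replicate 1, 5 without merbarone 2 h replicate 2 and 45 without untreated replicate 1, where the lone library left is assumed to vary like the other group. It was 0 with no filter on low values (53 genes called in all), 9 with quantile normalization and 23 with voom on the recovered reads, where 13440 genes were tested.

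**Figure D1:**
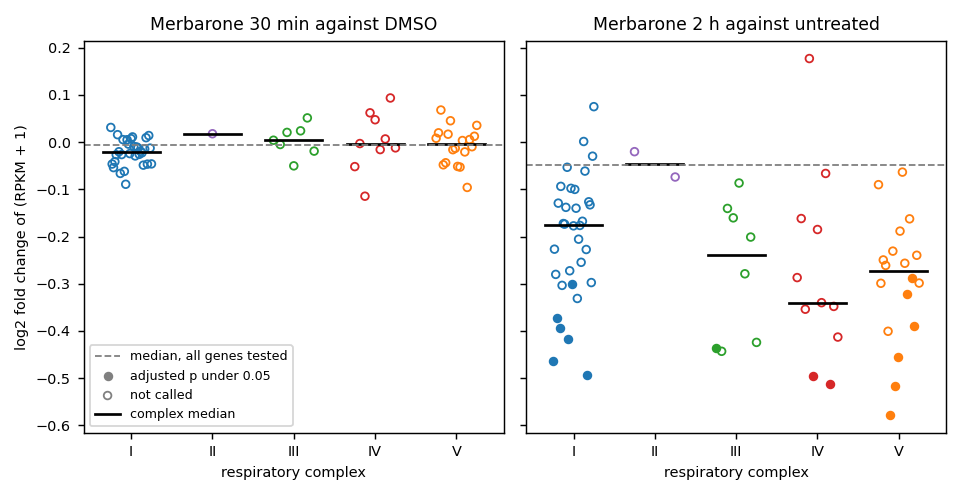
Change of each tested member on the log2(RPKM + 1) scale (vertical axis) by respiratory complex (horizontal axis), merbarone 30 min against DMSO on the left and merbarone 2 h against untreated on the right. Filled points passed limma's adjusted p of 0.05, bars are complex medians and the dashed line is the median of all genes tested: at 30 min no point is filled and the medians lie near 0, and at 2 h the 15 filled points all lie below 0.

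The summed RPKM of the members was 669 and 746 without treatment, against 535 and 571 after 2 h of merbarone. The corresponding sums of the 30 min experiment were 608, 622 and 623 with DMSO and 612, 590 and 633 with merbarone. The merbarone libraries were thus lowest in the 2 h experiment and interleaved with their controls in the 30 min experiment. Over the tested members, the untreated libraries had median log2(RPKM + 1) values of 2.47 and 2.53, against 2.16 and 2.25 with merbarone. The replicates of a group differed mostly in 1 direction for these genes, with replicate 2 the higher in both groups of the 2 h experiment. Untreated replicate 2 exceeded untreated replicate 1 for 58 of the 72 members (80.6%, beside 55.4% of all genes). Merbarone replicate 2 exceeded merbarone replicate 1 for 53 (73.6%, beside 54.4%). The part of this shared order in the calls was not tested beyond the counts without each library and with the replicate number as a block.

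**Figure D2:**
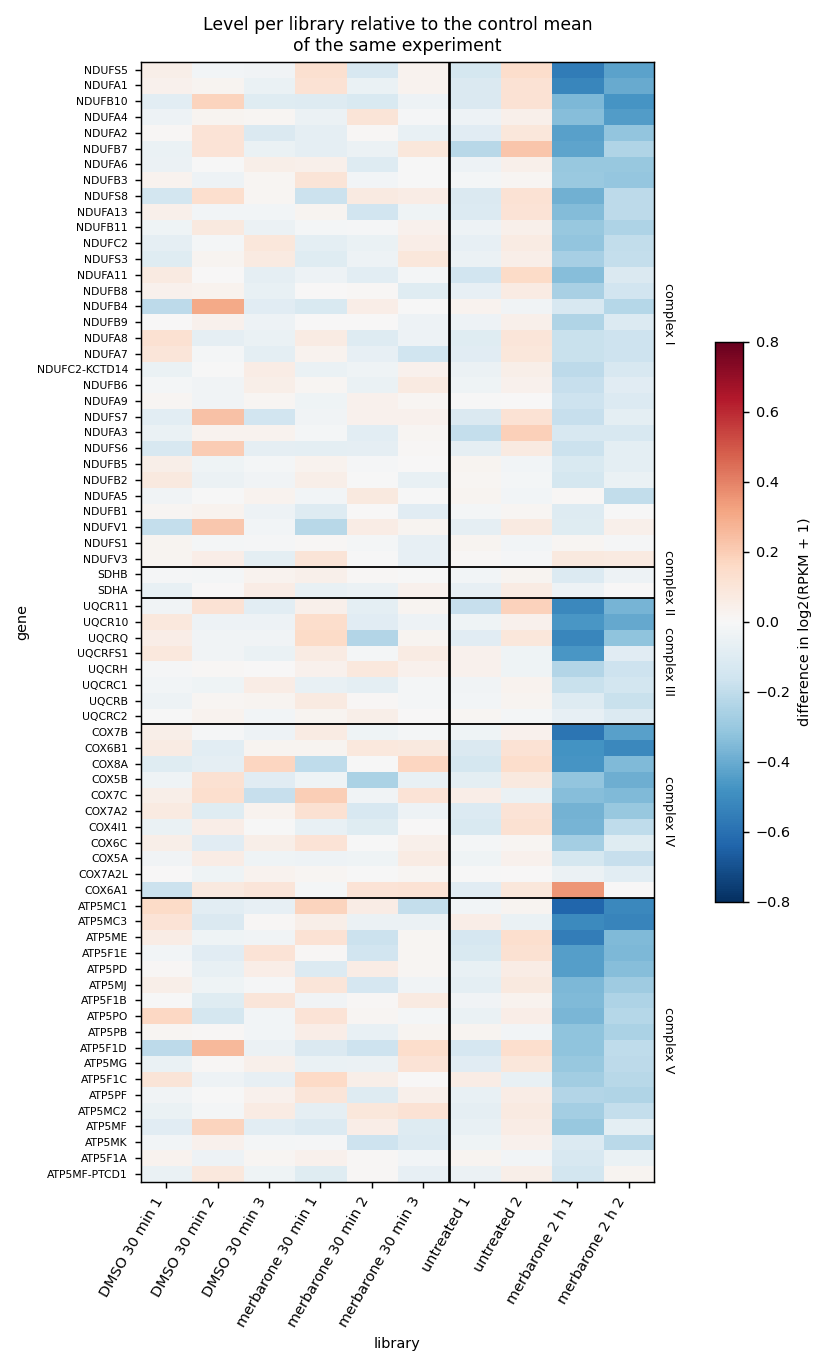
Level of members tested at 2 h (71 rows, grouped by complex and ordered by the 2 h change) in each of the 10 libraries (columns), as the difference in log2(RPKM + 1) from the control mean of the same experiment, blue for lower and red for higher. Both merbarone 2 h columns are blue for most rows, the merbarone 30 min columns are mixed, and COX6A1 and NDUFV3 stand at or above the untreated mean.

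Promoter sequence is printed for 5 members because the results turn on them: ATP5MC1, the strongest fall of all, COX7B, COX6B1 and UQCR10, the members that fell in complexes IV and III, and NDUFV1, a catalytic subunit whose level differed little. Each is the 250 bases before the RefSeq start site on GRCh38.p14, 5′ to 3′ on the gene's strand. Capitals mark matches on either strand to the motifs searched, which were the NRF1 consensus (GCGC blocks around an A and any base), CCGGAAG of ETS factors, AAGATGGC of YY1, GGGCGG of SP1, CCAAT of NF-Y and TATAAA of the TATA box. A match is a description and not a binding site.
ATP5MC1, chr17:48892537-48892786, plus strand, with 4 CCAAT matches: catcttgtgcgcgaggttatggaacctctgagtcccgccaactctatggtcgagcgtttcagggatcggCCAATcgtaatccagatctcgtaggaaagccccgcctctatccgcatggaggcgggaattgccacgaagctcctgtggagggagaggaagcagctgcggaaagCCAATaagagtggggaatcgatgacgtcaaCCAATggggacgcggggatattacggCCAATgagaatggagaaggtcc
COX7B, chrX:77899218-77899467, plus strand, with 2 overlapping TATAAA matches, 1 on each strand: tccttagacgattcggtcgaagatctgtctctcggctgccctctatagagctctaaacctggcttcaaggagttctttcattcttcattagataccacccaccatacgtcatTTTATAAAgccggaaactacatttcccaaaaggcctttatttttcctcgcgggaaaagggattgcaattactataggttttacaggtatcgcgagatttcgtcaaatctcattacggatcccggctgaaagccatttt
COX6B1, chr19:35648073-35648322, plus strand, with 2 CCAAT matches and 1 ETS match: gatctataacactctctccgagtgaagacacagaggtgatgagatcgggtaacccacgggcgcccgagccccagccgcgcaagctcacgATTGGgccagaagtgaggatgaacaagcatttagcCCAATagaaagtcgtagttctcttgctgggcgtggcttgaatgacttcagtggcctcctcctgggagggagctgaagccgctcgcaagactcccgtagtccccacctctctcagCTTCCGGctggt
UQCR10, chr22:29767119-29767368, plus strand, with 1 CCAAT match: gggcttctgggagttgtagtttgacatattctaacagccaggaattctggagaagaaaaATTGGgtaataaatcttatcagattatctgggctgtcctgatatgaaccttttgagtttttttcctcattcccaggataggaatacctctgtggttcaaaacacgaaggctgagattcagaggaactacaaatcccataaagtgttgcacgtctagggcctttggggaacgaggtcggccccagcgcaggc
NDUFV1, chr11:67606686-67606935, plus strand, with no match: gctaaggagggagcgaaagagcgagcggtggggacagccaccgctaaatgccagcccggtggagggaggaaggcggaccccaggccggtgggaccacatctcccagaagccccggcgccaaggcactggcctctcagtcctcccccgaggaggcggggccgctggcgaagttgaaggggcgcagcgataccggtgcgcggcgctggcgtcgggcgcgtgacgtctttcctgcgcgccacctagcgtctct

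RefSeq start sites were found for 69 of the 87 members. An NRF1 match stood in such a window for 21.7% of them, beside 13.6% of the protein-coding genes tested at 2 h and 8.72% of all protein-coding genes. The ETS letters stood in 26.1%, beside 22.3% and 13.98%. The SP1 letters stood in 60.9%, beside 76.1% and 62.1%, CCAAT in 34.8%, beside 43.3% and 40.2%, TATAAA in 10.1%, beside 6.57% and 11.9%, and the YY1 letters in 1.45%, beside 2.66% and 1.77%. Of the 12 members called at 2 h with a window, 2 held the NRF1 letters and 3 the ETS letters. Of the 47 tested and not called, 10 held the NRF1 letters and 14 the ETS letters, so the shares lay close together in these small sets.

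In complex I, 6 of 33 tested members fell at 2 h (18.2%, beside 7.1% of all genes called lower) and the median change was -0.18. The strongest was NDUFS5 (ENSG00000168653, chr1:39491990-39500308 on GRCh37), an accessory subunit of the membrane arm's intermembrane face. Its RPKM was 13.3 and 16.5 without treatment and 9.73 and 10.8 after merbarone. Both treated libraries lay below both controls, at a mean 31.2% lower, and the change was -0.49 (SE 0.12, limma adjusted p = 0.029). NDUFA1 (ENSG00000125356, chrX:119005795-119010625), a small membrane subunit needed for assembly of the complex, had 10.7 and 12.7 RPKM untreated and 7.8 and 8.55 with merbarone. That is a change of -0.46 (SE 0.11, limma adjusted p = 0.028). NDUFB10 (ENSG00000140990, chr16:2009539-2011976), an accessory subunit of the distal membrane arm, had 20.8 and 24.7 untreated and 17.4 and 16.0 with merbarone, a change of -0.42 (SE 0.12, limma adjusted p = 0.047). NDUFA4, NDUFA2 and NDUFB3 fell by 0.39, 0.37 and 0.30 on the log2 scale. NDUFA2 overlaps IK and TMCO6, and NDUFB3 overlaps HYCC2.

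No subunit of the catalytic core of complex I was called at 2 h. Of its 7 nuclear subunits, 6 were tested and 0 were called by limma, beside 7.1% of all genes called lower. A set of 6 is too small to tell 0 calls from that share, and 2 reached an unadjusted p of 0.05 in limma. The median was -0.10, beside a median of -0.18 and 6 calls among 27 other tested subunits. The division into core and other subunits is textbook knowledge and was made after the values were seen, so it carries no test. NDUFV1, which holds the FMN and the NADH site, had an RPKM of 16.5 and 18.4 untreated and 16.2 and 17.9 with merbarone, with overlap. Its change was -0.03 (SE 0.11, limma adjusted p = 0.88). NDUFS1, the largest iron-sulfur subunit, had 2.35 and 2.26 untreated and 2.34 and 2.28 with merbarone, a change of 0.00 (SE 0.07). NDUFS8 and NDUFS3, core subunits of the arm in the matrix, had -0.30 and -0.23 (limma adjusted p = 0.11 and 0.13). For each of them both merbarone libraries lay below both untreated ones, as for 39% of all genes. NDUFV3, an accessory subunit of the NADH-binding module, had 1.22 and 1.19 RPKM untreated and 1.32 in both merbarone libraries, a change of 0.07 (SE 0.06, limma adjusted p = 0.45). It is the 1 member among the 72 tested whose treated libraries both lay above the controls.

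In complex II, succinate dehydrogenase, 0 of 2 tested members were called by limma, beside 13.1% of all genes, and 0 reached an unadjusted p of 0.05. SDHA, the flavoprotein that oxidises succinate, had 1.02 and 1.21 RPKM untreated and 1.05 and 1.11 with merbarone, a change of -0.02 (SE 0.07, limma adjusted p = 0.87). SDHB had 1.32 and 1.40 untreated and 1.19 and 1.29 with merbarone, a change of -0.07 (SE 0.07, limma adjusted p = 0.48). SDHC and SDHD, the membrane anchors, did not reach the filter.

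In complex III, 1 of 8 tested members fell (12.5%, beside 7.1% of all genes called lower), and the median change was -0.24. All 8 had both merbarone libraries below both untreated ones, beside 39% of all genes. UQCR10 (ENSG00000184076, chr22:30163358-30166402), a small membrane subunit whose promoter is printed above, had 24.7 and 25.9 RPKM untreated and 18.1 and 18.8 with merbarone. The mean was 27.2% lower and the change -0.44 (SE 0.10, limma adjusted p = 0.026). The small subunits UQCR11 and UQCRQ had changes of the same size, -0.44 (SE 0.13, limma adjusted p = 0.056) and -0.42 (SE 0.12, limma adjusted p = 0.054), and did not pass. Their untreated replicates lay further apart, with UQCR11 at 10.4 and 13.8 RPKM. The core proteins UQCRC1 and UQCRC2 had -0.16 and -0.09 (limma adjusted p = 0.26 and 0.48). UQCRFS1, the Rieske iron-sulfur protein that hands electrons to cytochrome c1, had 2.08 and 1.93 RPKM untreated and 1.17 and 1.82 with merbarone. Its change was -0.28 (SE 0.11, limma adjusted p = 0.13), with the 2 treated libraries far apart.

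In complex IV, 2 of 11 tested members fell (18.2%, beside 7.1% of all genes called lower) and the median change was -0.34. That was the lowest of the 5 complexes on the log2(RPKM + 1) scale, which understates changes of low values. COX7B (ENSG00000131174, chrX:77154937-77162873), a small membrane subunit, had an RPKM of 8.33 and 8.75 untreated and 5.35 and 6.05 with merbarone. Its mean was 33.3% lower, and the change was -0.51 (SE 0.10, limma adjusted p = 0.011). COX6B1 (ENSG00000126267, chr19:36139225-36149684), which binds at the dimer interface on the intermembrane side, had 8.98 and 10.8 untreated and 6.79 and 6.58 with merbarone, a change of -0.50 (SE 0.11, limma adjusted p = 0.019). The subunits COX8A, COX5B, COX7C and COX7A2 had changes of -0.41, -0.35, -0.35 and -0.34 at limma adjusted p of 0.066, 0.056, 0.054 and 0.057. For each of these 4, both merbarone libraries lay below both untreated ones, as for 39% of all genes. COX4I1, a regulatory subunit, had 28.8 and 34.3 untreated and 24.1 and 27.2 with merbarone, a change of -0.29 (SE 0.12, limma adjusted p = 0.15).

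In complex V, 6 of 18 tested members fell (33.3%, beside 7.1% of all genes called lower), and the median change was -0.27. That share was the highest of the 5 complexes, in a count that rested on single libraries. ATP5MC1 (ENSG00000159199, chr17:46970127-46973233), which encodes the c subunit of the rotor ring, had the strongest change of all members. Its RPKM was 9.90 and 10.2 untreated and 6.11 and 6.71 with merbarone, a mean 36.2% lower and a change of -0.58 (SE 0.09, limma adjusted p = 0.0058). ATP5MC3 (ENSG00000154518, chr2:176040986-176046438), a gene for the same mature protein, had 15.7 and 14.6 untreated and 10.3 and 10.2 with merbarone, a change of -0.52 (SE 0.10, limma adjusted p = 0.011). ATP5ME (ENSG00000169020, chr4:666225-668119), a small membrane subunit that takes part in dimer formation, had 10.1 and 12.4 untreated and 7.29 and 8.54 with merbarone. Its change was -0.45 (SE 0.12, limma adjusted p = 0.040), and it overlaps MYL5. The peripheral stalk genes ATP5PD and ATP5PB fell by 0.39 and 0.29, and the small membrane subunit gene ATP5MJ fell by 0.32. ATP5PD overlaps KCTD2 and ATP5PB overlaps WDR77.

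None of the 5 genes of the F1 head and central stalk, where ATP is made, passed limma's test at 2 h, although 4 reached an unadjusted p of 0.05, and their median was -0.26. ATP5F1B, the catalytic beta subunit, had 68.0 and 70.8 RPKM untreated and 54.1 and 58.3 with merbarone, a change of -0.30 (SE 0.11, limma adjusted p = 0.11). ATP5F1A, the alpha subunit, had 14.9 and 14.4 untreated and 13.3 and 14.1 with merbarone, a change of -0.09 (SE 0.10, limma adjusted p = 0.56). ATP5F1E, the small epsilon subunit, had -0.40 (SE 0.12, limma adjusted p = 0.052). The stalk and membrane groups were also made after the values were seen: 2 of 3 c subunit genes, 2 of 4 peripheral stalk genes and 2 of 5 small membrane subunits fell. Over all genes, 7.1% were called lower.

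**Figure D3:**
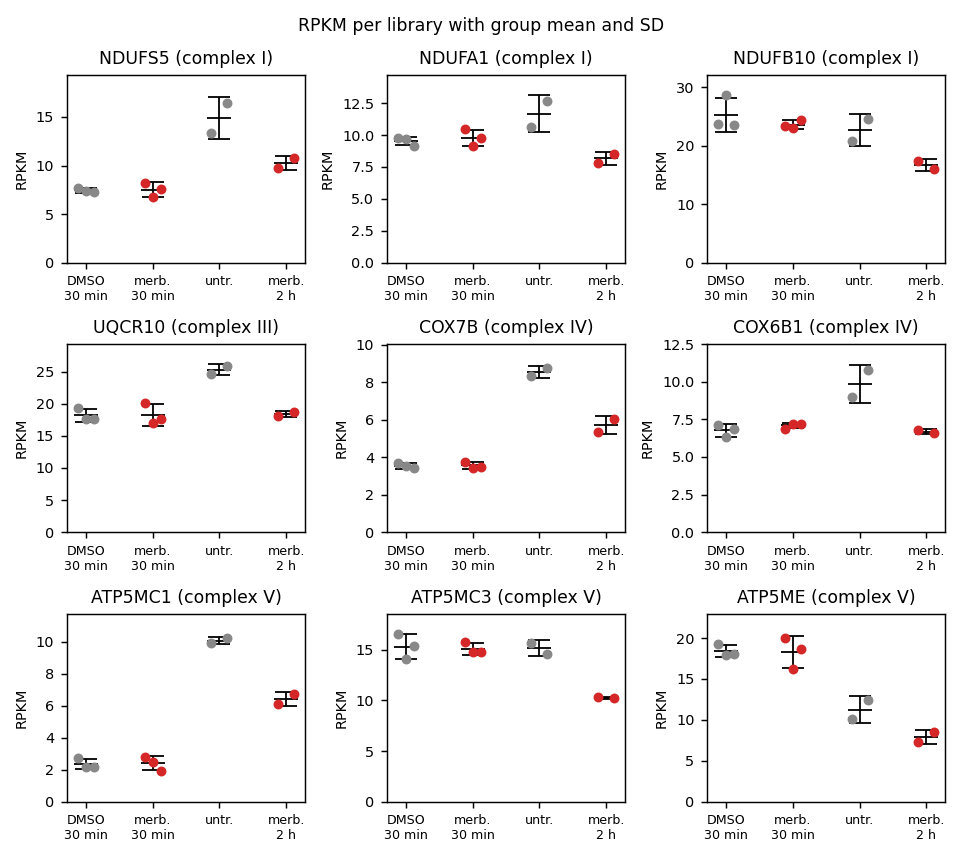
RPKM in each library (vertical axis, starting at 0) for the called members of complexes I, III, IV and V, up to the 3 strongest of each, by group (horizontal axis), with the group mean and SD as bars. In each panel both merbarone 2 h points lie below both untreated points, while the merbarone 30 min points overlap the DMSO points.

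The change at 2 h minus the change at 30 min was tested over all 10 libraries, where time, kind of control and experiment cannot be told apart. Of 69 members tested, 1 was called, COX7B, beside 1.63% of 6558 genes, with 0.366% lower and 1.27% higher. COX7B had 3.69, 3.51 and 3.41 RPKM with DMSO and 3.75, 3.43 and 3.49 with merbarone for 30 min, and the values above at 2 h. Its difference was -0.52 (SE 0.10, limma adjusted p = 0.033). COX6B1 had a difference of -0.56 (SE 0.12, limma adjusted p = 0.053) and ATP5MC1 one of -0.59 (SE 0.16, limma adjusted p = 0.11). The median difference was -0.23, beside -0.04 over all genes, and 64 of the 69 members lay below 0, beside 59.6%. The call of COX7B was lost when any 1 of the 10 libraries was left out (without untreated replicate 1 the 1 member called was COX6B1), and with median scaling, quantile normalization or voom. The limma adjusted p of COX7B ran from 0.0016 to 0.18 over 18 alternatives and lay under 0.05 in 5.

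Several subunits have tissue forms, and the ubiquitous forms carried nearly all of the reads. COX4I1 had the highest transcript-scaled level of all members in the untreated cells, 348, and COX4I2, known as the lung and hypoxia form, had 0 reads in all libraries. COX6A2 and COX7B2, the heart and muscle form and the testis form of their subunits, also had 0 reads, and a count of 0 allows up to 3 reads per library. COX8C, another testis form, had 5 reads over all libraries and COX7A1, the heart and muscle form, had 22. COX7A2, the ubiquitous counterpart, had a transcript-scaled level of 176 in untreated cells and 133 after 2 h of merbarone. COX6B1 stood at 215 and 146, and its testis form COX6B2 at 0.963 and 1.03.

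COX6A1, the ubiquitous partner of COX6A2, held all of the reads of that pair, at a low transcript-scaled level of 6.30 in untreated cells. The gene had 40 and 45 reads untreated and 69 and 44 with merbarone, and it has 7 annotated pseudogenes of its name. Its change of 0.18 (SE 0.11, limma adjusted p = 0.32) was the most positive of all members at 2 h. Members that fell have such pseudogenes too: ATP5MC1 and ATP5PB have 8 each, COX6B1 has 7 and NDUFS5 has 6, while 5 of those that fell have none. NDUFA4L2, known as the hypoxia-induced paralog of NDUFA4, had 8 and 8 reads untreated and 14 and 28 with merbarone. These are 0.103 and 0.115 RPKM against 0.176 and 0.369, below the filter, and the gene overlaps SHMT2.

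ATP5MC1, ATP5MC2 and ATP5MC3 encode the same mature c subunit of ATP synthase. For each of them both merbarone 2 h libraries lay below both untreated ones (beside 39% of all genes), and ATP5MC1 and ATP5MC3 were called. At 2 h the transcript-scaled level of ATP5MC2 (chr12:54026510-54071192) was 307 in untreated cells and 251 with merbarone, that of ATP5MC3 48.9 and 33.2, and that of ATP5MC1 48.4 and 30.8. By that measure ATP5MC2 was the highest of them. Its untreated reads were 2433 and 2459, beside 1748 and 1457 for ATP5MC3. The authors' RPKM gave the other order, with ATP5MC3 at 15.7 and 14.6 untreated, so the order rests on the length used. ATP5MC2 had an RPKM of 4.09 and 4.60 untreated and 3.41 and 3.69 with merbarone, a change of -0.23 (SE 0.09, limma adjusted p = 0.12). The difference between the genes was not tested. At 30 min the changes were 0.02 for ATP5MC1, 0.05 for ATP5MC2 and -0.02 for ATP5MC3. In the DMSO cells the transcript-scaled levels were 163 for ATP5MC2, 49.4 for ATP5MC3 and 11.3 for ATP5MC1, so ATP5MC1 was far lower there than in the untreated cells while ATP5MC3 was at the same level.

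Such gaps between the control groups stood out for other members too, and are given as values because vehicle, time and experiment cannot be told apart in them. Untreated libraries all lay above all DMSO libraries by a ratio of means of at least 2 for 7 of 69 members, beside 3.29% of all genes, and below by as much for 0, beside 1.01%. The 7 were ATP5MC1 (4.27), NDUFA4 (4.09), NDUFB3 (2.85), UQCRFS1 (2.58), ATP5PD (2.56), COX7B (2.42) and ATP5F1E (2.06). All 7 were among the 43 members with an annotated pseudogene of their name, whose median ratio was 1.35. The 26 members without one had a median of 1.03 and a highest value of 1.57. NDUFA4 had 2.91, 3.08 and 3.07 RPKM with DMSO and 11.995 and 12.702 untreated. The part of read placement in this gap was not tested. Within the 2 h experiment, 5 of 27 tested members without a named pseudogene fell (18.5%, beside 7.1% of all genes called lower).

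**Figure D4:**
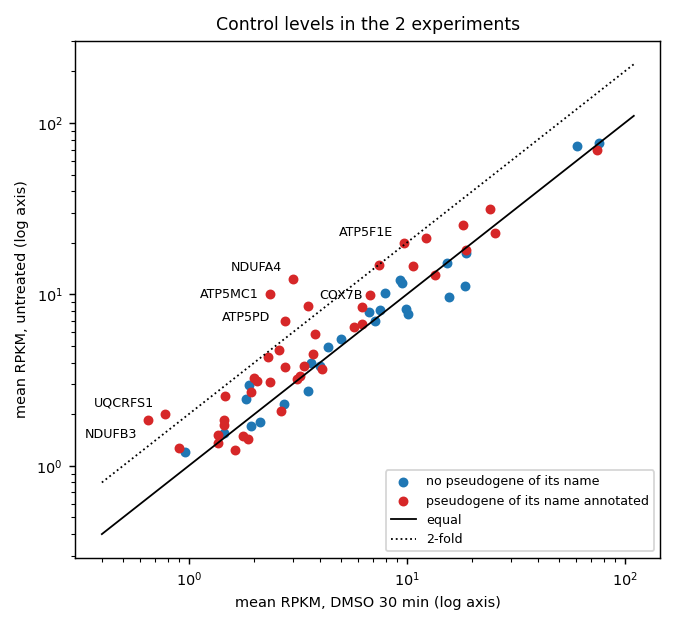
Mean RPKM of each member in the DMSO cells (horizontal axis, log scale) and in the untreated cells (vertical axis, log scale), red for members with an annotated pseudogene of their name and blue for those without. The 7 labelled genes above the dotted 2-fold line are all red, and the blue points follow the line of equality more closely.

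Many members have short transcripts, and the change at 2 h was therefore set beside transcript length. Members with a canonical transcript under 1000 bases had a median change of -0.27 and 11 of 42 fell (26.2%). Members at or above that length had a median of -0.16 and 4 of 29 fell (13.8%). Over all genes tested, the median was -0.21 for 574 transcripts under 1000 bases, with 17.9% called lower, and -0.04 for 5899 longer ones, with 6.05%. Across 71 members, the Spearman correlation of the 2 h change with canonical transcript length was 0.30, and across 6473 genes it was 0.34. With the untreated RPKM the correlation was -0.72 across 72 members and -0.38 across 6619 genes. These points share libraries, and the log2(RPKM + 1) scale understates changes of low values, so the correlations are descriptions. Voom works on reads and does not compress low values. On its scale the members' medians were closer together, -0.30 below 1000 bases and -0.26 from there on, and over all genes they were -0.27 and -0.05. The voom changes correlated with canonical transcript length at 0.30 across members and 0.33 across all genes. With the untreated RPKM they correlated at -0.57 across members and -0.34 across all genes. The 4 longer members that fell were ATP5MC3 (2587 bases, -0.52), COX7B (2444 bases, -0.51), NDUFA4 (2035 bases, -0.39) and ATP5PB (2628 bases, -0.29). The part of transcript length in the members' falls was not tested.

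**Figure D5:**
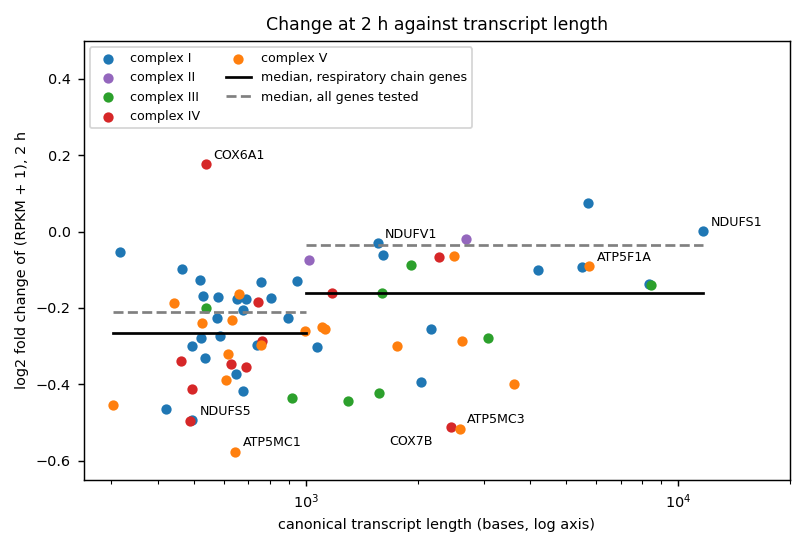
Change at 2 h on the log2(RPKM + 1) scale (vertical axis) against canonical transcript length (horizontal axis, log scale), coloured by complex. Solid lines are the members' medians below and above 1000 bases (-0.27 and -0.16) and dashed lines those of all genes tested (-0.21 and -0.04).

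Other genes of mitochondrial respiration were counted from lists of known roles. Assembly factors of the complexes had 4 of 35 tested called at 2 h, all lower (11.4%, beside 13.1% of all genes called and 7.1% called lower), with a median of -0.10. They were COA3, COA4, COA6 and PET100. Among 5 tested electron carriers and subunits outside the symbol rule, ATP5IF1, the inhibitor of ATP synthase, fell, and the median was -0.15. The 13 mitochondrially encoded subunits had a median of 0.09 at 2 h, and MT-ND5 and MT-ND6 fell. At 30 min the same 13 had a median of -0.13 with 0 called, of which 3 reached an unadjusted p of 0.05 in limma. Enzymes of the tricarboxylic acid cycle had 0 of 10 called at 2 h in limma, 0 at an unadjusted p of 0.05, and a median of -0.01. The 4 tested regulators of respiratory genes had 0 called, 2 at an unadjusted p of 0.05 in limma, and a median of -0.08.

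Ribosomal protein genes were counted beside them. Mitochondrial ribosomal proteins had 6 of 62 tested called at 2 h, all lower (9.68%), with a median of -0.14. Cytosolic ribosomal proteins had a median of -0.20, near that of the respiratory genes, with 4 of 73 lower and 1 higher (6.85% called) among RPL10, RPL12, RPS21, RPS26 and RPSA. Over all genes, 13.1% were called and 7.1% called lower. At 30 min 0 genes of any of these lists were called by limma.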

How the data were processed

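RNA was sequenced from 10 libraries made with the TruSeq Stranded mRNA kit from 150 ng of total RNA, per the labels' protocols. The authors deposited 1 table of RPKM values per library with 20327 Ensembl genes, per the file headers, not log-transformed and not pooled. Bowtie 1.2.0, DESeq2, edgeR and deepTools 2.4.1 and the build hg19 (GRCh37) are named in the submitters' processing notes, without their roles. The read counter and the annotation are not given in the sources used here. Symbols and gene positions came from tables of gene names and a GRCh37 annotation (GENCODE lifted to it).

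For 17680 genes, 100% of those with a value above 0, the deposited RPKM steps gave whole reads (tolerance 1e-06). The gene length they imply lay within 1% of the gene span for 74.9% of 17234 genes. Library totals were 26633780, 30681959 and 38225538 reads (DMSO), 33655315, 37470287 and 35036533 (merbarone 30 min), 13323106 and 11956652 (untreated), and 13691014 and 13038361 (merbarone 2 h). Replicates differed by more than sampling noise (chi-square per degree of freedom 4.00 to 61.1 over 8 pairs). Floors for counts of 0 use 3 reads and cover counting error only.

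Values were tested as log2(RPKM + 1) by lmFit and eBayes with trend of limma 3.58.1 under R 4.3.3, two-sided, where a gene's mean reached 1 RPKM, with Benjamini-Hochberg adjustment over all genes tested. Each experiment was fitted alone, and the difference of effects over all 10 libraries. Pairing was checked by the correlation of same-numbered libraries' deviations: 0.925, 0.646 and 0.605 at 30 min, where the numbers of the titles pair the libraries. At 2 h it was 0.30, and with 2 libraries per group this does not settle whether the numbers mark pairs. Other settings tried were another pseudocount (0.1), other filters (none, 5 RPKM), scaling by medians or quantiles, no trend, the replicate number as a block, a single fit of all libraries, limma's voom on recovered reads (a mean of 10 or more, table totals as library sizes) and leaving out each library. 1 member is not reported here by name or in the plot of levels by library. The tests were also tried on simulated data. Members and lists were chosen with earlier results of these data known. Named with values were the 3 strongest called members per complex, the most positive and negative per complex and experiment, the tissue forms, the c subunit genes and catalytic subunits; other members are named with values in the lists of calls, near the threshold or among the control gaps after their values were seen. Python 3.11.15, pandas 2.3.3, NumPy 2.4.6, SciPy 1.17.1 and matplotlib 3.10.9 were used.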

Additional observations from a re-analysis of the deposited data

Results flagged for a closer look

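COX7B, a small subunit of cytochrome c oxidase, differed between the 2 experiments by a test of the difference itself: its change was 0.01 at 30 min and -0.51 at 2 h, a difference of -0.52 (limma adjusted p = 0.033, and 0.051 to 0.18 when any single library was left out). It was the 1 member called of 69 tested (1.45%, beside 1.63% of 6558 genes). The call was lost with median scaling, quantile normalization or voom. The untreated level of COX7B was also 2.42 times its DMSO level, and the part of that gap in the difference was not tested.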

How the results depend on the processing

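At 30 min the count of called members was 0 under all alternatives run, and the median change ran from -0.02 to 0.01 when single libraries were left out. At 2 h the count of 15 became 0 with no filter on low values, 9 with quantile normalization and 23 with voom. It became 45 with the replicate block (44 lower, beside 32.2% of all genes called) and 43 with voom plus that block (42 lower). Voom tested 13440 genes in place of 6620. The counts with quantile normalization and voom stand without the share of all genes called under the same setting, so they are not read against the 15. The count also rested on single libraries. The median of -0.24 became -0.35 over the 33 members that reached 5 RPKM and -0.29 with voom, with or without the block, and ran from -0.29 to -0.17 without single libraries. The difference contrast called 1 member in the reported fit. It called 2 with no filter, 3 without trend, 0 under the 5 RPKM filter, under either scaling or with voom, 29 with the replicate block (19.1% of all genes), 29 with voom plus that block, and 0 to 1 without single libraries. Whether the numbers of the 2 h libraries mark pairs is not known, and the block leaves 1 residual degree of freedom there. At 30 min, where the numbers pair the libraries, the block changed no call of a member. Chosen after seeing the data, 10 of 40 members (25%) that overlap no other tabled gene, 5 of 27 (18.5%) with no named pseudogene and 15 of 70 (21.4%) without the readthrough genes were called at 2 h. Over all genes, 13.1% were called and 7.1% called lower. With NDUFA4 counted under complex IV, the 2 h medians were -0.17 for complex I and -0.34 for complex IV. Voom with TMM scaling was planned and not run; voom with table totals as library sizes was chosen after seeing the data. No named result changed direction while called. Why these settings differ was not tested, and 12 members with a mean of at least 10 reads stayed under the filter of 1 RPKM.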
